A study of Mus musculus with 11 samples.

Results

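The enzymes that write, copy and remove DNA methylation, and the core enzymes of Polycomb repressive complex 2, were followed in mouse mesenchymal stem cells (MSCs), stromal cells that can form bone, cartilage and fat. The members are Dnmt1, Dnmt3a, Dnmt3b, Uhrf1, Tet1, Tet2, Tet3, Ezh1, Ezh2 and Eed. They were taken by gene symbol because of their known function, though with earlier results of these data known. They are 10 of the 28222 genes in the count table. All 10 were found and all 10 passed the filter on low counts in each comparison. Polyadenylated RNA was sequenced from cultured MSCs of young mice, aged 3 to 5 months, and old mice, aged 18 to 22 months, and all cells were grown at 2% oxygen. No genotype, strain or sex is given in the labels. The labels also name 3 batches without saying what a batch is. The groups are called A-young (4 libraries), B-young (2), B-old (2) and C-old (3) after their batch and age, and age and batch can be told apart only within batch B, which alone has both ages. The labels do not say whether libraries of a group came from separate animals, so p-values measure only the spread between these samples, which may be technical.

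Total counts ran from 11969336 to 20315934 per library, and 3 counts, taken as the smallest detectable level, corresponded to 0.156 to 0.253 CPM, which are counts scaled to a common library size with TMM factors. The labelled cell type was checked against its markers. Col1a1, the main collagen of stromal cells, was at 18430 CPM or more in every library, and the MSC markers Pdgfra, Ly6a, Thy1, Eng and Vcam1 were all detected in all 11 libraries. Of 7 endothelial genes in the table, Tek was at 1.30 to 8.56 CPM, with its highest group mean, 6.75 CPM, in C-old, and the defining genes Pecam1 and Cdh5 were at 0.589 CPM or less. The summed level of 20 haematopoietic marker genes was 899 to 2006 CPM in A-young, 507 to 1056 in B-young, 1071 to 1510 in B-old and 173 to 205 in C-old. In bulk RNA, fewer cells of a type and less RNA per cell cannot be told apart.

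DNA methylation places a methyl group on cytosine, mostly at CpG dinucleotides. Dnmt1, guided by Uhrf1, copies the pattern onto the new strand after DNA replication, Dnmt3a and Dnmt3b methylate sites anew, and the Tet enzymes oxidise the mark towards its removal. Polycomb repressive complex 2 methylates lysine 27 of histone H3 and keeps genes silent, among them the Cdkn2a locus, which encodes inhibitors of the cell cycle and is well known in ageing and senescence.

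Per kilobase of the longest annotated transcript, the members fell into a high, a middle and a low level when all libraries were pooled. On this scale, as mean ± SD over 11 libraries, Eed was at 12.5 ± 2.18 CPM per kb, Dnmt1 at 9.93 ± 3.09, Ezh1 at 7.67 ± 1.87, Uhrf1 at 7.25 ± 2.81 and Ezh2 at 5.02 ± 1.38. The middle level held Dnmt3a at 2.47 ± 0.479, Tet3 at 2.29 ± 0.547 and Tet2 at 1.71 ± 1.25 CPM per kb. The low level held Dnmt3b at 0.292 ± 0.171 and Tet1 at 0.241 ± 0.115 CPM per kb. Neighbours in this order differed by less than the larger of their SDs, except Ezh2 against Dnmt3a and Tet2 against Dnmt3b. The order was not the same in every group. In A-young, Dnmt1 at 10.3 ± 1.61 CPM per kb was level with Eed at 10.0 ± 1.15, within their spread. In C-old, Tet2 at 3.63 ± 0.425 CPM per kb was above Dnmt3a at 2.63 ± 0.0581 and Tet3 at 2.38 ± 0.117. With the length of all annotated exons joined, 4 of the 10 members kept their rank, because Eed changed place with Dnmt1, Ezh1 with Uhrf1, and Dnmt3a with Tet3.

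**Figure D1:**
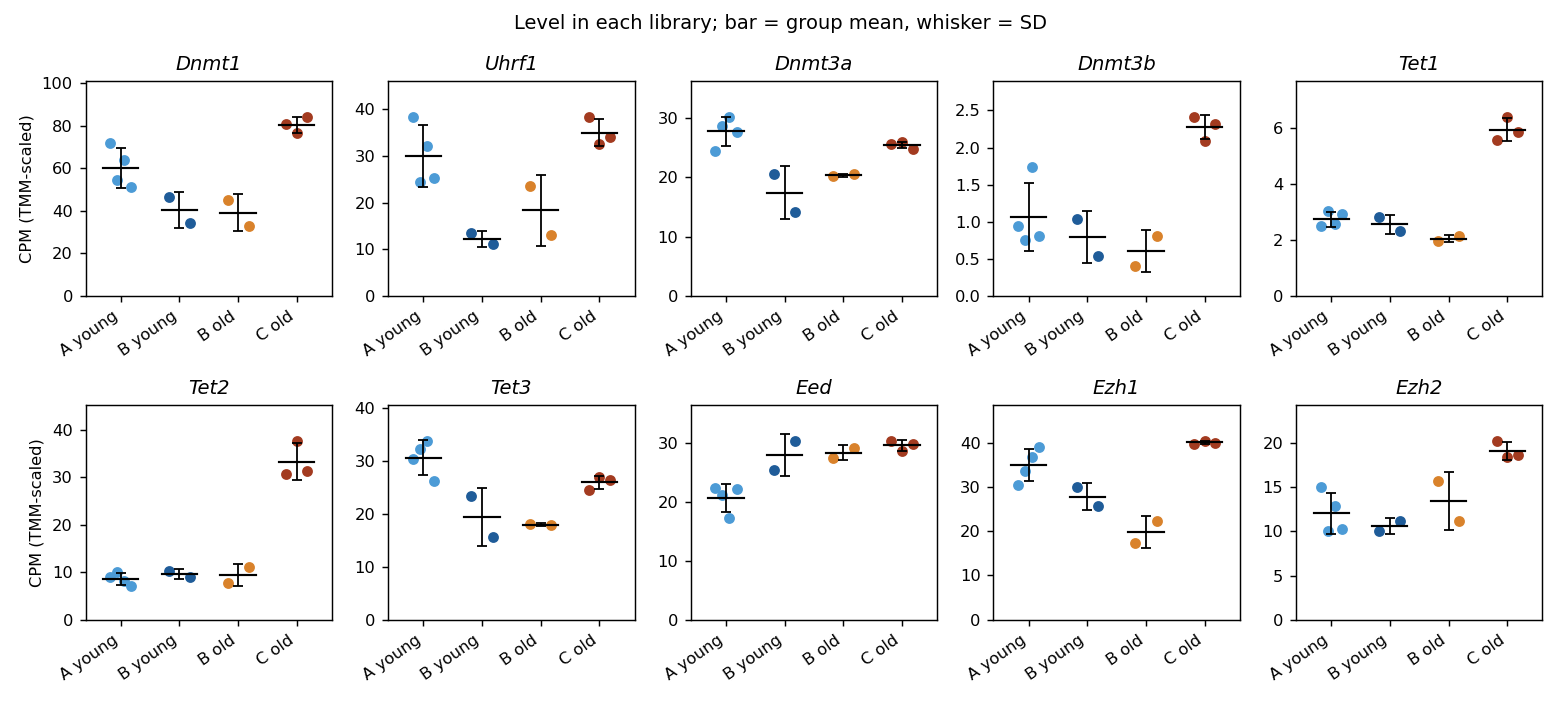
Level of each member in CPM (vertical axes) in every library (points), grouped by batch and age. Tet2 lies between 30.8 and 37.8 CPM in C-old and at 11.1 CPM or less in every other library, and Eed has the narrowest range of all members on the log2 scale.

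The maintenance genes were described first. Dnmt1 (ENSMUSG00000004099, GRCm38 chromosome 9, 20907209 to 20959888, minus strand) was at 71.9, 54.5, 63.7 and 51.0 CPM in A-young, 46.5 and 34.4 in B-young, 45.3 and 32.9 in B-old, and 80.5, 76.5 and 84.1 in C-old. Its batch C values were above all others, and its young and old values in batch B overlapped. Uhrf1 (ENSMUSG00000001228, chromosome 17, 56303321 to 56323486, plus strand), which reads hemimethylated CpG sites and recruits Dnmt1, was at 38.3, 24.3, 32.1 and 25.2 CPM in A-young and 13.4 and 11.03 in B-young. In old MSCs, Uhrf1 was at 23.6 and 13.0 CPM in batch B and 38.3, 32.6 and 34.1 in batch C. The old batch B library with the higher Uhrf1 level was also the higher of the pair for Dnmt1 and Ezh2. Its summed mitosis genes were higher too, at 466 against 318 CPM. The young batch B pair differed in this. There, the library with more Uhrf1 and Dnmt1 was the lower for Ezh2, at 10.0 against 11.2 CPM. It was also the lower for the summed mitosis genes, at 228 against 252 CPM.

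Dnmt3a (ENSMUSG00000020661, chromosome 12, 3806007 to 3914443, plus strand), a de novo methyltransferase, was at 24.5, 28.6, 30.2 and 27.7 CPM in A-young, 20.6 and 14.2 in B-young, 20.2 and 20.5 in B-old, and 25.6, 26.0 and 24.9 in C-old. Both batch B groups lay below every library of batches A and C. Dnmt3b (ENSMUSG00000027478, chromosome 2, 153649450 to 153687730, plus strand), the other de novo enzyme, rested on 6 to 41 counts per library. It was at 0.76 to 1.73 CPM in A-young, 0.54 and 1.04 in B-young, 0.40 and 0.80 in B-old, and 2.41, 2.10 and 2.32 in C-old. Only the batch C libraries stood apart for Dnmt3b.

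Among the dioxygenases, Tet1 (ENSMUSG00000047146, chromosome 10, 62804570 to 62908996, minus strand) was at 2.49 to 3.04 CPM in A-young, 2.81 and 2.31 in B-young, 1.95 and 2.14 in B-old, and 5.59, 6.42 and 5.88 in C-old. Tet2 (ENSMUSG00000040943, chromosome 3, 133463679 to 133545139, minus strand) was at 8.98, 9.97, 8.26 and 7.15 CPM in A-young, 10.3 and 8.92 in B-young, 7.75 and 11.1 in B-old, and 30.8, 37.8 and 31.3 in C-old. For Tet1 and Tet2 alike, the batch C libraries were above the 8 others. Tet3 (ENSMUSG00000034832, chromosome 6, 83362373 to 83459084, minus strand) was at 30.4, 32.2, 33.9 and 26.2 CPM in A-young, 23.3 and 15.6 in B-young, 18.1 and 17.8 in B-old, and 24.5, 26.9 and 26.4 in C-old. The Tet3 values of batch B were below those of the other batches in both ages.

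Of the Polycomb genes, Ezh1 (ENSMUSG00000006920, chromosome 11, 101191115 to 101226463, minus strand), the methyltransferase that prevails in resting cells, was at 30.5, 33.5, 36.8 and 38.9 CPM in A-young and 29.9 and 25.7 in B-young. In old MSCs, Ezh1 was at 17.3 and 22.3 CPM in batch B and 39.7, 40.5 and 40.0 in batch C. Ezh2 (ENSMUSG00000029687, chromosome 6, 47530139 to 47595341, minus strand), the methyltransferase that prevails in dividing cells, was at 15.0, 10.05, 12.9 and 10.3 CPM in A-young, 10.0 and 11.2 in B-young, 15.8 and 11.2 in B-old, and 20.3, 18.5 and 18.6 in C-old. Eed (ENSMUSG00000030619, chromosome 7, 89954654 to 89980983, minus strand), the subunit that binds the methylated histone, was at 22.3, 21.1, 17.3 and 22.2 CPM in A-young, 25.4 and 30.4 in B-young, 27.5 and 29.3 in B-old, and 30.4, 28.6 and 29.9 in C-old. Ezh1 was lowest in the old libraries of batch B, and Eed was lowest in batch A.

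Whether reads were counted by strand is not given in the sources used here. Eed shares 261 exon bases with E230029C05Rik on the other strand, which had a mean count of 5.18 per library against 389 for Eed. Ezh2, Dnmt3a and Tet2 share 174, 133 and 43 exon bases with opposite-strand genes whose mean count was 0.55 or less.

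The first comparison asked how old MSCs differed from young MSCs once batch was accounted for. None of the 10 members passed an adjusted p of 0.05 by edgeR's quasi-likelihood test, beside 2.23% of all genes tested. At an unadjusted p under 0.05, 2 members, Ezh1 and Uhrf1, were found by edgeR, and limma and DESeq2 each gave 2, beside 16.1% of all genes in edgeR. In batch B, the young and old values did not overlap in 2 members, Ezh1 and Tet1, both lower in old MSCs, beside 39.7% of all genes in either direction and 20.6% lower. None of these counts of members stood clearly above the share of all genes, and the count without overlap was below it.

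Ezh1 came nearest to the threshold. Its mean in batch B was 27.8 ± 2.95 CPM (SD, n = 2) in young and 19.8 ± 3.53 (n = 2) in old MSCs, and the log2 difference, old minus young, was -0.49 ± 0.15 (SE, edgeR adjusted p = 0.098). The 95% interval of this log2 difference ran from -0.78 to -0.20. Uhrf1 had a mean of 12.2 ± 1.67 CPM in young and 18.3 ± 7.56 in old batch B libraries, with a log2 difference of 0.58 ± 0.25 (edgeR adjusted p = 0.269). Leaving out B-young library 2 gave Ezh1 a log2 difference of -0.60, past the threshold (edgeR adjusted p = 0.0270), and no other member passed in that fit. Without B-old library 1, the log2 difference of Ezh1 was -0.31 (edgeR adjusted p = 0.591) and that of Uhrf1 was 0.091, whereas Uhrf1 was at 0.95 (edgeR adjusted p = 0.0662) without B-old library 2.

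For the other members, the precision left room for moderate differences with age. The 95% interval of the log2 difference ran from -0.41 to 0.30 for Dnmt1, from -0.42 to 0.35 for Tet2, from -0.46 to 0.21 for Tet3 and from -0.24 to 0.30 for Eed. It ran from -0.09 to 0.53 for Dnmt3a, from -0.05 to 0.74 for Ezh2, from -0.83 to 0.16 for Tet1 and, at its few counts, from -1.45 to 0.59 for Dnmt3b. A difference of 2-fold or more in either direction lay outside each of these intervals except that of Dnmt3b. The spread behind them was estimated over all 11 libraries, while the age difference rests on batch B alone. A chi-square per gene between libraries of a group was 52.3 in B-young and 23.7 in B-old. It was 5.68 to 18.6 in A-young and 3.24 to 5.18 in C-old. The intervals may therefore be too narrow to exclude a 2-fold difference.

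**Figure D2:**
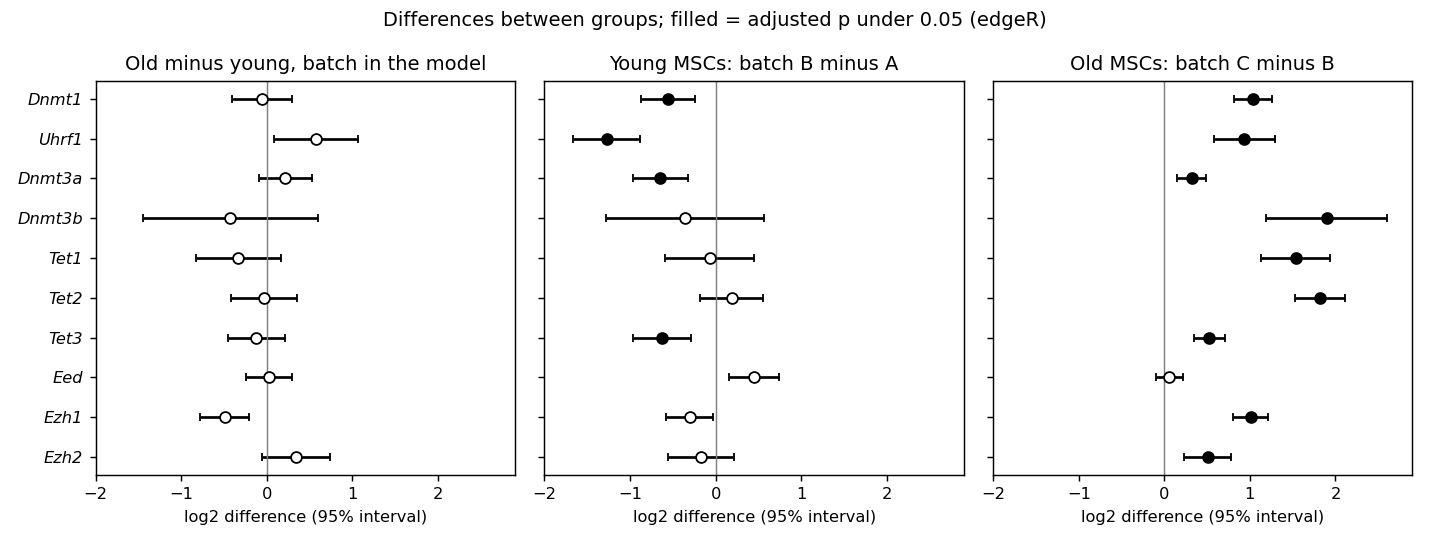
Log2 difference (horizontal axis) of each member in the comparisons between ages and between batches, with bars for the 95% interval and filled points for an edgeR adjusted p under 0.05. The intervals of old minus young with batch in the fit cross 0 for all members but Ezh1 and Uhrf1, and 9 of 10 members have intervals above 0 in old MSCs of batch C against batch B.

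The second comparison held age constant in young MSCs and set batch B against batch A. It shares the young libraries of batch B with the first. Dnmt1, Uhrf1, Dnmt3a and Tet3 were lower in batch B, so that 4 of 10 members passed the threshold, all of them lower, beside 18.1% of all genes in either direction and 8.71% lower. Uhrf1 had the largest change, with 29.99 ± 6.57 CPM (SD, n = 4) in batch A and 12.2 ± 1.67 (n = 2) in batch B and a log2 difference of -1.27 ± 0.20 (SE, edgeR adjusted p = 0.00228). Dnmt1 fell by 0.55 ± 0.16 on the log2 scale (edgeR adjusted p = 0.0329), Dnmt3a by 0.65 ± 0.17 (edgeR adjusted p = 0.0194) and Tet3 by 0.63 ± 0.17 (edgeR adjusted p = 0.0248).

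Eed, with a log2 difference of 0.45 ± 0.15 (edgeR adjusted p = 0.0557), lay just outside the threshold, and passed it when libraries were scaled by total counts (edgeR adjusted p = 0.0304). The libraries of the batches did not overlap for Dnmt1, Uhrf1, Dnmt3a, Tet3 and Ezh1, which were lower in batch B, nor for Eed, which was higher, together 6 of 10 beside 40.9% of all genes, 20.8% lower and 20.1% higher. Uhrf1 passed the threshold whichever library was left out. Without the third batch A library, or without the second young library of batch B, Uhrf1 was the single member to pass. Without that B-young library, the log2 differences of Dnmt1, Dnmt3a and Tet3 were -0.36, -0.41 and -0.37. Dnmt1 also missed it without the first batch A library and Tet3 without the second.

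The third comparison set old MSCs of batch C against old MSCs of batch B, and shares the old libraries of batch B with the first. Every member except Eed was higher in batch C, that is 9 of 10, beside 64.7% of all genes in either direction and 32.1% higher. The same 9 had groups that did not overlap, beside 76.3% of all genes in either direction and 38.9% higher. The median log2 difference of the members was 0.97, beside 0.02 for all genes tested.

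The largest folds belonged to Dnmt3b, Tet2 and Tet1. Dnmt3b was at 0.603 ± 0.281 CPM (SD, n = 2) in batch B and 2.28 ± 0.164 (n = 3) in batch C, a log2 difference of 1.90 ± 0.36 (SE, edgeR adjusted p = 0.000635). Tet2 was 3.52-fold higher, at 9.42 ± 2.36 against 33.3 ± 3.90 CPM (edgeR adjusted p = 6.42e-07), and Tet1 was 2.9-fold higher, at 2.05 ± 0.130 against 5.96 ± 0.418 CPM (edgeR adjusted p = 4.22e-05).

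Dnmt1 was 2.05-fold and Ezh1 2.01-fold higher in batch C. Their log2 differences were 1.04 ± 0.11 (edgeR adjusted p = 6.41e-06) and 1.01 ± 0.10 (edgeR adjusted p = 4.10e-06). Smaller log2 differences were found for Uhrf1, at 0.93 ± 0.18, Tet3, at 0.52 ± 0.09, Ezh2, at 0.51 ± 0.14, and Dnmt3a, at 0.32 ± 0.09, with edgeR adjusted p of 0.00704 or less. The B-old libraries differed for Uhrf1 and Ezh2, so that the log2 difference of Uhrf1 was 0.56 without B-old library 2 and 1.43 without library 1, and it passed in both fits. Eed was at 28.4 ± 1.25 CPM in batch B and 29.7 ± 0.938 in batch C, with a 95% interval of the log2 difference from -0.10 to 0.22. With total counts as the scale, the median log2 difference of all genes went from 0.02 to 0.22 and that of Eed to 0.25 (edgeR adjusted p = 0.0191). Ezh2 was at 0.27 without B-old library 2, which missed the threshold (edgeR adjusted p = 0.0686), and at 0.77 without library 1.

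Differences between these old groups also varied with transcript length. When all genes tested were put into 10 groups of equal size by length, the median log2 difference, batch C minus batch B, rose from -0.69 in the shortest group, of median length 727 nt, to 0.52 in the longest, of 8102 nt, where 62.1% of genes passed the threshold as higher. Dnmt3a, Tet1, Tet2 and Tet3 belonged to the longest group. Tet1 and Tet2, with log2 differences of 1.53 and 1.82, lay above its median, Tet3 at 0.52 lay on it, and Dnmt3a at 0.32 lay below it. The other 6 members lay above the medians of their groups, with Dnmt1 at 1.04 against 0.28, Dnmt3b at 1.90 against 0.16, Ezh1 at 1.01 against 0.06, Uhrf1 at 0.93 against 0.02, Ezh2 at 0.51 against -0.05 and Eed at 0.06 against -0.16. The part of length in the members' differences was not tested.

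**Figure D3:**
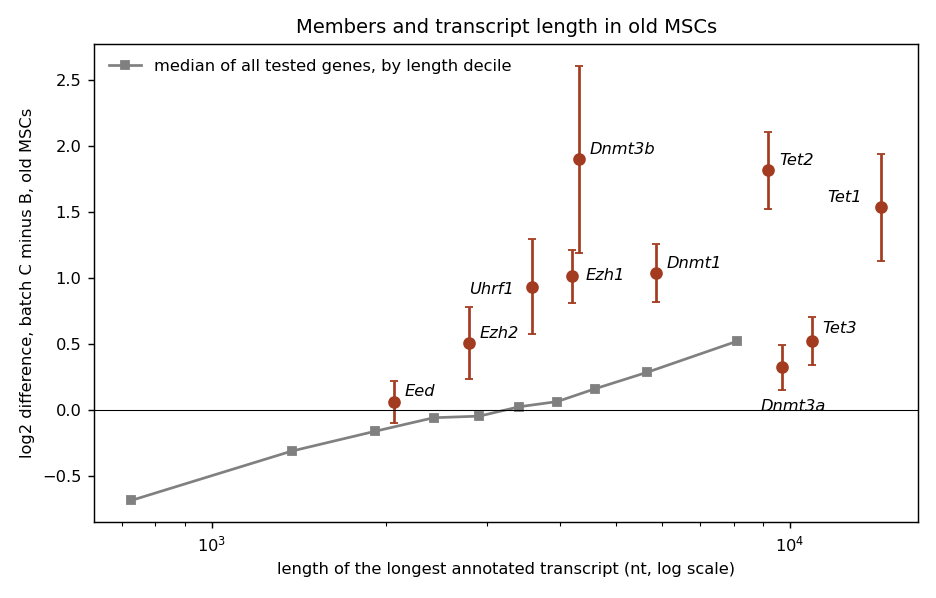
Log2 difference in old MSCs, batch C minus batch B (vertical axis), against the length of the longest annotated transcript in nt (log axis). Red points are the members with 95% intervals and grey squares are medians of all genes in length deciles, which rise from -0.69 to 0.52, and Dnmt3a lies below this line at its length.

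When batch was left out of the fit over all 11 libraries, Tet2 and Ezh2 were higher in old MSCs, so that 2 of 10 members passed, beside 18% of all genes in either direction and 9.33% higher. The log2 difference of Tet2 was 1.43 ± 0.35 (SE, edgeR adjusted p = 0.0199) and that of Ezh2 was 0.56 ± 0.17 (edgeR adjusted p = 0.0410). Within batch B, the log2 differences of the same genes were -0.03 ± 0.20 for Tet2 and 0.34 ± 0.20 for Ezh2, and neither passed. Batch A has only young and batch C only old libraries, so the adjusted p of the fit without batch do not separate age from batch. In simulated counts that kept the batch differences, 90.5% of the calls of that fit were false. A high share of false calls was set by this design and is not further evidence. Tet2 missed the threshold in the pooled fit when any 1 of the batch C libraries was left out (edgeR adjusted p = 0.055 to 0.058). Ezh2 missed it then too, and also without any 1 of A-young libraries 2, 3 and 4 or without B-young library 1 (edgeR adjusted p = 0.067 to 0.108).

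The composition of each family was then described, as shares of the family's summed CPM per kb, with no test. Tet3 made up 71.3% ± 2.03 (SD, n = 4) of the Tet family in A-young, 58.8% ± 4.29 (n = 2) in B-young, 58.8% ± 5.83 (n = 2) in B-old and 37.1% ± 1.89 (n = 3) in C-old. Over the same groups Tet2 took 23.7%, 35.2%, 36.2% and 56.4%, so that Tet2 and not Tet3 was the leading Tet transcript in batch C alone. Dnmt1 was the leading Dnmt transcript throughout, with group means of 74.4% to 81.2% of the Dnmt family. Ezh2 took 34.2% ± 6.10 of Ezh1 plus Ezh2 in A-young, 36.6% ± 4.36 in B-young and 41.9% ± 1.49 in C-old. In B-old its share was 50.4% ± 10.5, and the libraries of that group were at 43.0% and 57.9%. With joined exon lengths the mean share of Ezh2 in B-old was 43.1%.

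**Figure D4:**
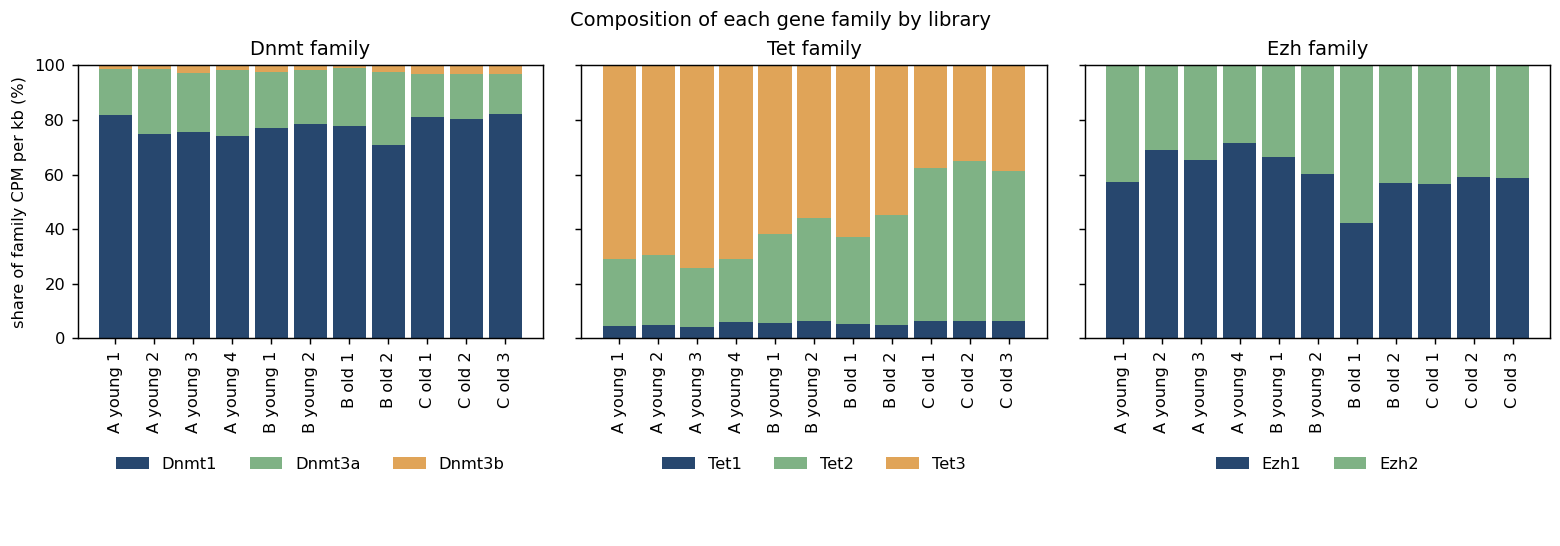
Share of each gene in its family's summed CPM per kb, in percent (vertical axis), for each library (bars). Tet2 and Tet3 change order in C-old, where Tet2 has a mean share of 56.4% and Tet3 of 37.1%.

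Genes of cell division were listed because Dnmt1, Uhrf1 and Ezh2 are known to be expressed most in dividing cells. They moved between the same groups as Dnmt1 and Uhrf1 in both batch comparisons. Ezh2 did not pass between young groups, at -0.17 ± 0.20 (SE, edgeR adjusted p = 0.581), and Dnmt1 was at -0.05 with age in the batch-adjusted fit. The summed level of 20 mitosis genes was 399 to 826.5 CPM in A-young, 228 to 252 in B-young, 318 to 466 in B-old and 741 to 859 in C-old. In young MSCs, 19 of the 20 were lower in batch B than in batch A and none higher, beside 8.71% of all genes lower. Their median log2 difference was -1.22. In old MSCs, 15 of 20 were higher in batch C than in batch B and none lower, beside 32.1% of all genes higher. Their median was 0.82. With batch in the fit, none of the 20 passed with age, beside 2.23% of all genes, and their median log2 difference was 0.65. Those with the smallest p were Birc5, at 1.12 (edgeR adjusted p = 0.0755), and Ccnb2, at 0.81 (edgeR adjusted p = 0.0831).

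DNA replication genes followed a like order of groups. Their summed level over 21 genes was 559 to 838, 427 to 464, 515 to 694 and 721.5 to 788 CPM in the same 4 groups. Of the 21, 11 were lower in batch B than in A-young, beside 8.71% of all genes lower. In batch C against B-old, 12 were higher and 1 lower, beside 64.7% of all genes in either direction and 32.1% higher. With age in the batch-adjusted fit, Gins2, part of the replicative helicase, rose by 0.92 on the log2 scale (edgeR adjusted p = 0.00922) and Rrm1, of ribonucleotide reductase, by 0.75 (edgeR adjusted p = 0.0326). The part of cell division in the members' differences was not tested.

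**Figure D5:**
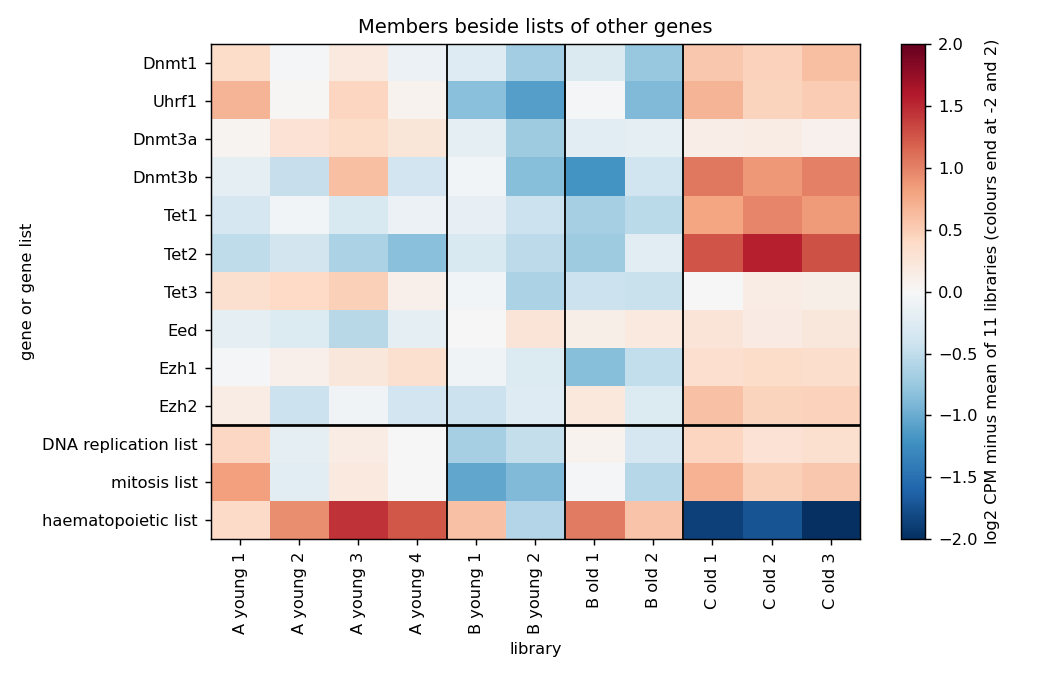
Log2 CPM of each member, and the mean log2 CPM of the genes in the replication, mitosis and haematopoietic lists, in each library (columns), centred on the mean of the 11 libraries (colour scale in log2 units). The mitosis and replication genes are lowest in B-young, and the haematopoietic genes are lowest in C-old.

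Promoters of the members were read because cell division genes, whose promoters are known for E2F sites, also moved between batches. Dnmt1, Uhrf1, Dnmt3a and Tet3 passed in both batch comparisons. Dnmt3b, Tet1, Tet2, Ezh1 and Ezh2 passed between the old groups and not between the young groups. RefSeq windows from 250 bases before to 50 bases after the start site (GRCm38.p6) were matched for 10 of 10 members. The letters TTTCGCGC or TTTGGCGC were taken as an E2F motif and searched on both strands. They were found in 0.813% of all 32851 windows and in 3 of the 15 member windows, from Dnmt1, Uhrf1 and Ezh2. Dnmt3a, Tet3, Dnmt3b, Tet1, Tet2, Ezh1 and Eed had no such match. The GC content of the member windows was 51.3% to 82.3%, and the share over all windows was not matched for it. Whether E2F motifs play a part in the members' differences was not tested. CCAAT, searched in the same way, was found in 37.4% of windows and in 7 of the 15 member windows, from 5 members. TTTGAA or TTCGAA was found in 19.2% of windows and in 3 of the 15 member windows, from 3 members. No match of the E2F letters overlapped one of CCAAT. Dnmt1 had a pair of E2F matches in 1 window, and only the first is shown, since the other begins 33 bases after the start site. The stretches around the E2F matches are shown 5′ to 3′ on the strand of the gene, with the E2F letters and CCAAT, on either strand, in capitals. The Dnmt1 stretch lies at chr9:20952833-20952862 (minus strand), in an annotated 5′ exon and UTR. The Uhrf1 stretch lies at chr17:56304108-56304227 (plus strand), within the span of the gene and outside annotated exons. The Ezh2 stretch lies at chr6:47595011-47595040 (minus strand), over the start of the first exon.
Dnmt1: ctcCCAATTGGtttccgcgcGCGCGAAAaa
Uhrf1: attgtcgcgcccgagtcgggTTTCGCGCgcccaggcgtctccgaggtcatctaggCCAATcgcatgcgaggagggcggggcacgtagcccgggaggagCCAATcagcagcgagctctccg
Ezh2: ttgggttgctgcgTTTGGCGCtcggtccgg
The first match began 219 bases before the nearest downstream RefSeq start site in Dnmt1 and 185 bases before it in Uhrf1, and 3 bases after it in Ezh2. A match of letters is a description of the sequence and not a measured binding site.

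The range of each member over the 11 libraries was widest for Tet2, at 2.38 on the log2 CPM scale, which 85.4% of genes did not reach. Dnmt3b followed at 2.24 and Uhrf1 at 1.79, and Eed was narrowest at 0.81. The protein-coding genes most like each of the widest 3, by the root mean square difference of centred log2 CPM over 11 libraries among 13180 candidates, were listed. For Tet2 they were Atad5, at 0.167, Syt2 and Trmt13, both at 0.169. For Dnmt3b they were Gper1, at 0.263, Greb1l and Cacna1b, both at 0.276. For Uhrf1 they were E2f8, at 0.099, Bub1b, at 0.143, and Cdca2, at 0.154.

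The partners of these enzymes did not pass with age in the batch-adjusted fit, in which 2.23% of all genes passed. With so low a share, the counts of 0 below do not set the partners apart from other genes. Among 23 DNA methylation partners, 0 passed by edgeR, with a median log2 difference of 0.04, and those with the smallest p were Zbtb4, a reader of methylated DNA, at -0.45 (edgeR adjusted p = 0.107), and Ahcy, which clears the by-product of methylation, at 0.31 (edgeR adjusted p = 0.172). Among 10 further PRC2 genes, 0 passed, with a median of 0.08, and Epop was at 0.67 (edgeR adjusted p = 0.348) and Rbbp4 at 0.24 (edgeR adjusted p = 0.378). Among 20 genes of Polycomb repressive complex 1, which compacts chromatin and ubiquitylates histone H2A, 0 passed, with a median of -0.10, and Pcgf2 was at -0.49 (edgeR adjusted p = 0.0955) and Cbx7 at -0.79 (edgeR adjusted p = 0.206). Of 6 genes that remove these histone marks or assist in it, 0 passed, with Asxl1 at -0.33 (edgeR adjusted p = 0.187) and Usp16 at 0.22 (edgeR adjusted p = 0.476).

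Between batches the partners moved in both directions. In young MSCs of batch B against batch A, 2 of 23 methylation partners were higher and 1 lower, 1 and 2 of 10 PRC2 genes, 2 and 1 of 20 PRC1 genes, and 1 and 2 of 6 demodifying genes. Of all genes tested there, 18.1% passed in either direction and 8.71% were lower. In old MSCs of batch C against batch B, 10 of 23 methylation partners were higher and 7 lower, 5 and 3 of 10 PRC2 genes, 7 and 5 of 20 PRC1 genes, and 4 and 0 of 6 demodifying genes. Of all genes tested there, 64.7% passed in either direction and 32.1% were higher. No list was tested against these shares. Suz12, the subunit that completes the PRC2 core with Eed and the Ezh enzymes, was named after its values were seen, and its log2 difference in old MSCs was 0.19 ± 0.08 (SE, edgeR adjusted p = 0.0436).

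The Cdkn2 genes, which Polycomb represses, ran in the other direction from Uhrf1 and Dnmt1 between batches. The Polycomb members did not all do so. Between young groups, B minus A, the log2 difference was 0.45 ± 0.15 for Eed, -0.17 ± 0.20 for Ezh2 and -0.30 ± 0.14 for Ezh1, and none passed by edgeR. Between old groups, C minus B, it was 0.06 ± 0.08 for Eed, 0.51 ± 0.14 for Ezh2 and 1.01 ± 0.10 for Ezh1. A link between the members and the Cdkn2 genes was not tested. Cdkn2a had mean levels of 69.6 CPM in A-young, 125 in B-young, 141 in B-old and 67.4 in C-old. Cdkn2b, its neighbour, was at 99.4, 134, 131 and 73.7 CPM. Between young groups Cdkn2a was higher in batch B by 0.87 on the log2 scale (edgeR adjusted p = 0.00178) and Cdkn2b by 0.45 (edgeR adjusted p = 0.0258). Between old groups both were lower in batch C, with log2 differences of -1.07 and -0.83. With age in the batch-adjusted fit, neither passed, at 0.18 for Cdkn2a and -0.03 for Cdkn2b.

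Germline genes that DNA methylation keeps silent stayed at or near the floor. All 9 in the table had a highest count of 12 or less in any library, and 0 of the 4 that could be tested passed with age. Mael was at 0.741 and 0.134 CPM in old and at 0 in both young libraries of batch B (edgeR adjusted p = 0.0955), and Taf7l at 0 and 0.134 CPM in old and 0.104 and 0.0681 in young.

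Cell type markers also differed between groups, though not always in the direction of the members. Between old groups the median log2 difference of the members was 0.97, while that of the haematopoietic genes was -2.88. Of 10 MSC markers, Pdgfra fell by 0.86 on the log2 scale (edgeR adjusted p = 0.0059) and Nt5e fell by 1.34 (edgeR adjusted p = 0.00932) with age in the batch-adjusted fit. Of 20 haematopoietic genes, 0 passed with age, at a median log2 difference of 0.71, and those with the smallest p were Lyz2, at 0.87 (edgeR adjusted p = 0.0699), and Cd53, at 1.15 (edgeR adjusted p = 0.0849). Of the endothelial list, Kdr and Tek could be tested with age, and neither passed, at -1.46 (edgeR adjusted p = 0.372) and 0.32 (edgeR adjusted p = 0.697). Between batches, 8 of the 20 haematopoietic genes were lower in batch B than in A-young, beside 8.71% of all genes lower. In batch C against B-old, 19 of the 20 were lower, with a median of -2.88, beside 64.7% of all genes in either direction. Of the 10 MSC markers, 2 were higher and 2 lower in batch B than in A-young, and 3 were higher and 3 lower in batch C than in B-old. The part of these cell type differences in the members' differences was not tested.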

How the data were processed

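RNA-seq libraries of 11 cultured mouse MSC samples were analysed from 1 table of raw counts per gene that the authors deposited, which rests on polyadenylated RNA and, per the submitters' processing notes, on GRCm38 (mm10). The aligner, counter and strand setting are not given in the sources used here. Groups, batches and replicate numbers were taken from the labels. Symbols were matched to GENCODE M21 for 28143 of 28222 genes, and 79 did not match.

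Counts were tested with edgeR 4.0.16 (R 4.3.3) by quasi-likelihood, with TMM factors, filterByExpr at a minimum count of 5 and Benjamini-Hochberg adjustment over all genes tested, at 0.05, two-sided. The fits were age with batch as covariate (11 libraries), batch B against A in young MSCs (6), batch C against B in old MSCs (5), and age without batch (11). A standard error is the log2 difference divided by the square root of F, and 95% intervals are 1.96 standard errors to either side. Alternatives were limma 3.58.1, DESeq2 1.42.0, other scalings and filters, a replicate block and each library left out. The code was tested on simulated counts with 200 genes changed 2-fold, in which the age fits kept the batch differences of the data. Of the genes called, 90.5% of 1657 were false in the age fit without batch. In the other fits 4% to 5.53% were false. All libraries were simulated with a single dispersion of 0.015, so these shares do not cover the unequal spread of the groups in the data. CPM were scaled to total counts multiplied by TMM factors. TMM factors were 0.889 to 0.926 in batch A, 0.948 to 1.02 in batch B and 1.152 to 1.162 in batch C. Intervals cover counting and library spread as modelled.

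All 10 members are named. Of the other lists (methylation partners, PRC2, PRC1, demodifiers, Cdkn2, germline, replication, mitosis, and MSC, haematopoietic and endothelial markers), genes past the threshold in the batch-adjusted age fit were named, up to 5, or else the 2 with the smallest p. Members and lists were chosen with earlier results of these data known. The genes Ezhip, Cbx6, Tex101, Cdt1 and Cldn5 were not analysed here.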

Additional observations from a re-analysis of the deposited data

How the results depend on the processing

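For age with batch in the fit, the count of members that passed (0) became 2 (Ezh1 and Uhrf1) with no filter, and the 360 genes became 643 with DESeq2, 1094 with no filter and 123 in batch B alone. With total counts, the log2 difference of Dnmt1 became 0.012 and that of Tet2 0.033. Leaving out 1 library gave 0 to 1 members and 84 genes (without the first old library of batch B) to 2007 (without the second young one), and log2 differences of -0.29 to 0.18 for Dnmt1, -0.020 to 0.52 for Dnmt3a, -0.998 to 0.15 for Dnmt3b, -0.10 to 0.16 for Eed, -0.32 to 0.21 for Tet2, -0.38 to 0.20 for Tet3, 0.091 to 0.95 for Uhrf1, -0.69 to -0.31 for Ezh1, 0.083 to 0.57 for Ezh2 and -0.46 to -0.18 for Tet1. For batch B against A in young MSCs, Tet1 became 0.0045 with total counts, and leaving out 1 library gave 1 to 5 members, 511 to 4031 genes, -0.92 to 0.0028 for Dnmt3b and -0.22 to 0.057 for Tet1. For batch C against B in old MSCs, total counts moved the median of all genes from 0.02 to 0.22 and Eed passed too, so that 10 members did, and leaving out 1 library gave 8 to 9, and 0.56 to 1.43 for Uhrf1 and 0.27 to 0.77 for Ezh2. For age without batch, 1 member passed with limma and with no filter, 3 (Tet2, Ezh2 and Eed) with DESeq2 and with total counts, and 7 members and 9585 genes when batch A young was set against batch C old MSCs. There Ezh1 became 0.020 with DESeq2 and RLE factors, 0.25 with total counts, 0.027 at a minimum count of 10 and 0.26 between batches A and C, and total counts gave 0.21 for Dnmt3a and 0.030 for Tet3. Leaving out 1 library gave 0 to 3 members, 761 to 3989 genes, -0.14 to 0.046 for Dnmt3a and -0.090 to 0.16 for Ezh1. The causes were not tested. With joined exon lengths, the share of Ezh2 was 27.8%, 29.9%, 43.1% and 34.7%, of Tet2 20.2%, 30.3%, 31.4% and 50.3%, and of Dnmt1 81.1%, 82.2%, 79.4% and 84.6% in A-young, B-young, B-old and C-old, and 4 members kept their rank.

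The labels give no shared animal or day for libraries of the same number. The correlations of deviations of same-numbered libraries from their group means were -0.142 and -0.234 between A-young and B-young, and 0.0859 and 0.0593 between B-old and C-old. Between B-young and B-old the correlation was 0.0589 for both pairs, which is a single value, since the deviations of the pair of libraries in each group mirror each other. From the labels, the samples were taken to share only a number. With the replicate block, 0 members and 294 genes passed with age and batch, 1 member (Uhrf1) and 729 genes in young MSCs in place of 4 and 2686, and 9 members and 9154 genes in old MSCs. For age without batch, the block gave 0 members and 0 genes by edgeR, with 4074 genes at an unadjusted p under 0.05, and Ezh1 at 0.020, whereas limma and DESeq2, run without the block, called 2363 and 3711 genes.

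Depth limits Dnmt3b most, at 6 to 41 counts, then Tet1. The age difference rests on 2 against 2 libraries of batch B.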
